A study of Mus musculus with 140 samples.

Results

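Silencers near the distal ends of the mouse autosomes were described from 2 deposited lists of silencer intervals, 1 for mouse embryonic stem cells (mESCs) and 1 for mouse embryonic fibroblasts (MEFs). An interval belonged to the set when its midpoint lay in the last 5 Mb of an autosome of the mm10 assembly, at the end away from the centromere, so position alone chose the members. The set held 6926 of the 204761 intervals of both lists, with 3884 of 115165 (3.37%) in the mESC list and 3042 of 89596 (3.40%) in the MEF list. The remaining autosomal sequence held 108990 mESC and 84764 MEF intervals, and the others were not on autosomes.

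A silencer is a stretch of DNA that lowers transcription from a promoter. In Ss-STARR-seq, genomic fragments are cloned into reporter plasmids and a silencer is read from a lower yield of reporter RNA relative to the plasmid input. The labels describe 140 libraries, of which 56 came from mESC reporter RNA, 64 from MEF reporter RNA and 20 from the input plasmid library. The mESCs were pluripotent cells kept in N2B27-2i/LIF medium, and the MEFs were differentiated cells grown in DMEM with FBS. The labels of the input libraries carry the name hPGK, and they give no genotype or strain for either cell type. Each cell type had 1 list, so no value had a replicate check. The files give no read depth for an interval, and the errors printed below cover counting only.

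Mouse autosomes carry the centromere close to one end, so the distal end is the tip of the only long arm. That tip is capped by telomeric DNA, tandem copies of TTAGGG bound by the shelterin proteins. In chromosomes, genes placed next to a telomere can be repressed, a position effect best known from yeast. Fragments in a reporter plasmid are read outside that setting. The mm10 assembly ends each autosome in unknown bases, 150 kb on chromosomes 4 and 6 and 100 kb on each of the other 17, so telomeric arrays were not part of the sequence analysed.

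The known sequence nevertheless carried silencers almost to its last base. On chromosome 14 the outermost mESC interval ended 0.866 kb before the last known base, on chromosome 8 the outermost mESC interval ended 1.16 kb before it, and on chromosome 16 this distance was 1.27 kb. The sequences of 5 outermost intervals, and of 1 interval that held TTAGGG in tandem, are shown as examples of the sequence next to the assembly end and of telomere-like repeats. Outermost intervals on some other autosomes lie nearer to the last known base than those shown for chromosomes 13 and 17. They are plus-strand sequences of GRCm38 (mm10) from RefSeq, 5′ to 3′, and capitals mark TTAGGG or its reverse complement CCCTAA.
Outermost on chromosome 14, mESC list, chr14:124801329-124801378, intergenic: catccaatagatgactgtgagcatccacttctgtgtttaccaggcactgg
Outermost on chromosome 16, mESC list, chr16:98106448-98106497, intergenic: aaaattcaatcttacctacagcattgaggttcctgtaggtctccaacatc
Outermost on chromosome 13, mESC list, chr13:120310502-120310651, intergenic: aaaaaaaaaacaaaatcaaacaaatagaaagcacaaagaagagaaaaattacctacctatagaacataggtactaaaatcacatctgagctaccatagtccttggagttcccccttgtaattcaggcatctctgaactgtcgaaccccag
Outermost on chromosome 1, mESC list, chr1:195370340-195370637, intergenic: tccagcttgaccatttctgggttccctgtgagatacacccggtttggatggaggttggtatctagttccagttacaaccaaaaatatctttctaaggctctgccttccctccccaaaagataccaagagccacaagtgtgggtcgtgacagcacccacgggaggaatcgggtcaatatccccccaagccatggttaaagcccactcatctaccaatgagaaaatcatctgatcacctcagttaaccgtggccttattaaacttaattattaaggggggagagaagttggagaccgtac
Outermost on chromosome 17, MEF list, chr17:94881032-94881328, intergenic: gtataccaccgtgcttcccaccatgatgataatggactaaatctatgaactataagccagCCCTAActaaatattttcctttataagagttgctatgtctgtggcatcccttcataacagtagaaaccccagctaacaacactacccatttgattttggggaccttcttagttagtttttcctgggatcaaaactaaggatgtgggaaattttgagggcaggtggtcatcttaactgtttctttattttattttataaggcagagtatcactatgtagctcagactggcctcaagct
Tandem TTAGGG, mESC list, chr1:192529245-192529494, Hhat intron: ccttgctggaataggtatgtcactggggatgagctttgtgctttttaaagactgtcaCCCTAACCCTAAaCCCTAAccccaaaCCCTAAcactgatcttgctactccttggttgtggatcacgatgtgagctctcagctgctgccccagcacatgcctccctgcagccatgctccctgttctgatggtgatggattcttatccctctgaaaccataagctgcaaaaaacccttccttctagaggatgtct

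The chromosome 14 interval was wholly soft-masked as repeat and had a fold of 6.02, a fold being the linear ratio that the authors listed with each interval (above 2 throughout), while the chromosome 16 interval was 12.0% soft-masked with a fold of 2.13. The chromosome 17 interval was shared, with a fold of 2.24 in the mESC list and 2.55 in the MEF list, and held 1 copy of the telomere unit. The interval in Hhat, which encodes the acyltransferase that palmitoylates Hedgehog proteins, held 4 copies of the unit on the minus strand, and the MEF list held a shorter interval inside it with the same 4 copies. Its fold was 2.95 in the mESC list and 2.20 in the MEF list. The outermost interval of a list lay a median of 109.3 kb from the assembly end in the mESC list and 121.2 kb in the MEF list. Chromosome 4 had the largest such distance in both lists, with 309.9 kb in the mESC list and 296.2 kb in the MEF list.

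The last 5 Mb held fewer silencers per Mb of known sequence than the remaining autosomal sequence. The mESC list had 42.0 intervals per Mb (95% exact Poisson interval 40.7 to 43.4) in the last 5 Mb, against 47.3 per Mb in the rest of the autosomes, a ratio of 0.889 (0.861 to 0.917). The MEF list had 32.9 per Mb (31.8 to 34.1), against 36.8 per Mb in the rest, a ratio of 0.895 (0.863 to 0.927). The low density was not particular to the last 5 Mb: the next windows inward, between 5 and 10 Mb from the end, had 39.98 per Mb in the mESC list and 31.4 per Mb in the MEF list. Between 10 and 15 Mb these densities were 45.1 and 35.5 per Mb. The first 5 Mb of known sequence at the centromere end had 47.2 per Mb in the mESC list and 37.1 per Mb in the MEF list. The ratio was below 1 on 13 of 19 autosomes in each list.

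**Figure D1:**
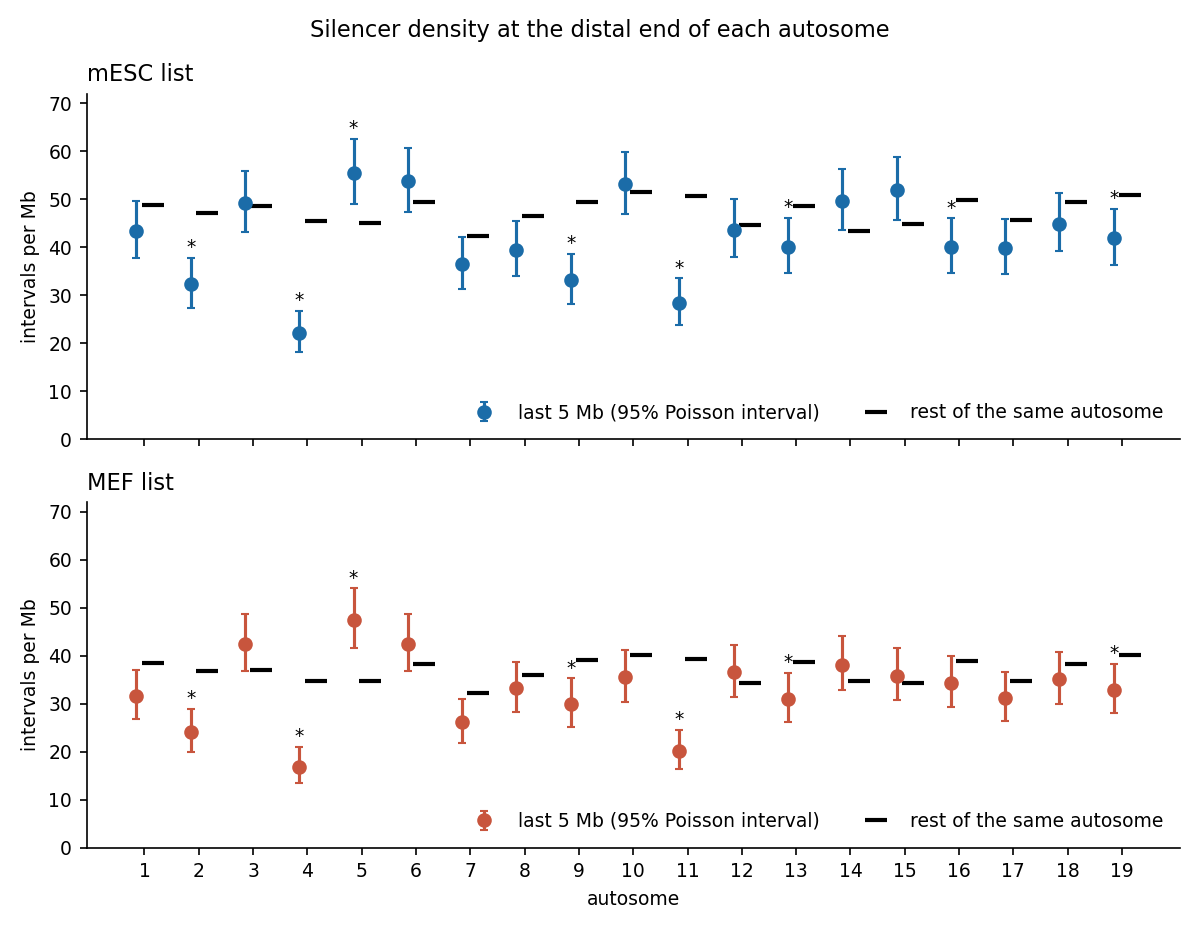
Silencer intervals per Mb of known sequence in the last 5 Mb of each autosome (points, with 95% exact Poisson intervals) and in the rest of the same autosome (black bars), for the mESC list above and the MEF list below. Stars mark windows past an adjusted p of 0.05 against their own autosome; chromosomes 4, 11 and 2 are the lowest in both lists and chromosome 5 is the highest.

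The 19 ends differed widely. Chromosome 4 had the lowest density, with 22.1 intervals per Mb in the mESC list and 16.9 in the MEF list, and its ratio to the rest of the chromosome was 0.487 in each list. Chromosome 11 followed with 28.4 per Mb in mESCs and 20.2 in MEFs, ratios of 0.560 and 0.515. Both windows were the lowest of all 5 Mb windows on their chromosomes in both lists, and the end of chromosome 9 was the lowest of 24 windows in the mESC list. At the other extreme, the end of chromosome 5 had 55.5 per Mb in mESCs and 47.5 in MEFs, ratios of 1.23 and 1.36, and was the densest of 30 windows on that chromosome in the MEF list. Chromosome 6 (53.8 and 42.5 per Mb in mESCs and MEFs) and chromosome 14 (49.6 and 38.2) also lay above the rest of their chromosomes in both lists, as did chromosomes 3 and 15.

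Each window was tested against its own autosome with an exact binomial test, adjusted by the Benjamini-Hochberg method over all 479 windows of 5 Mb. In the mESC list 7 of the 19 ends lay below their autosome, on chromosomes 2, 4, 9, 11, 13, 16 and 19, beside 17.3% of all windows. Only the end of chromosome 5 lay above, beside 17.5% of all windows. In the MEF list 6 ends lay below, the mESC set without chromosome 16, beside 14.4% of all windows, and chromosome 5 again lay above, beside 14.8%. The adjusted p was 1.21e-14 in mESCs and 4.52e-11 in MEFs for chromosome 4, and 9.03e-12 and 3.39e-11 for chromosome 11. These p-values treat intervals as independent, although intervals cluster. The variance of the counts between windows was 7.16 times that of the binomial in mESCs and 5.89 times in MEFs. That factor was estimated over all windows, so it includes any real differences between them. With deviations divided by its square root and normal p-values adjusted as before, 0 of the 479 windows passed in either list. An unadjusted binomial p below 0.05 was seen in 207 windows in mESCs and 186 in MEFs.

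The deficit was not spread evenly over the 5 Mb. In steps of 0.5 Mb from the end, mESC density was 54.5, 54.7, 48.3, 43.7 and 40.8 intervals per Mb over the outer 2.5 Mb. Over the inner 2.5 Mb it was 35.8, 33.6, 38.8, 38.3 and 36.1 per Mb. The steps of the outer 1.5 Mb therefore lay above the 47.3 per Mb of the rest, and every step further in lay below it. MEF density was 42.8, 38.7, 37.4, 38.4 and 32.5 per Mb over the outer 2.5 Mb. Over the inner 2.5 Mb it was 26.0, 29.6, 27.1, 31.5 and 28.4 per Mb. MEF steps lay above the 36.8 per Mb of the rest as far as 2 Mb from the end, but only the outermost beyond its error (38.1 to 47.9). The errors of the steps between 0.5 and 2 Mb (34.8 to 42.9, 33.6 to 41.5 and 34.6 to 42.6) held 36.8.

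**Figure D2:**
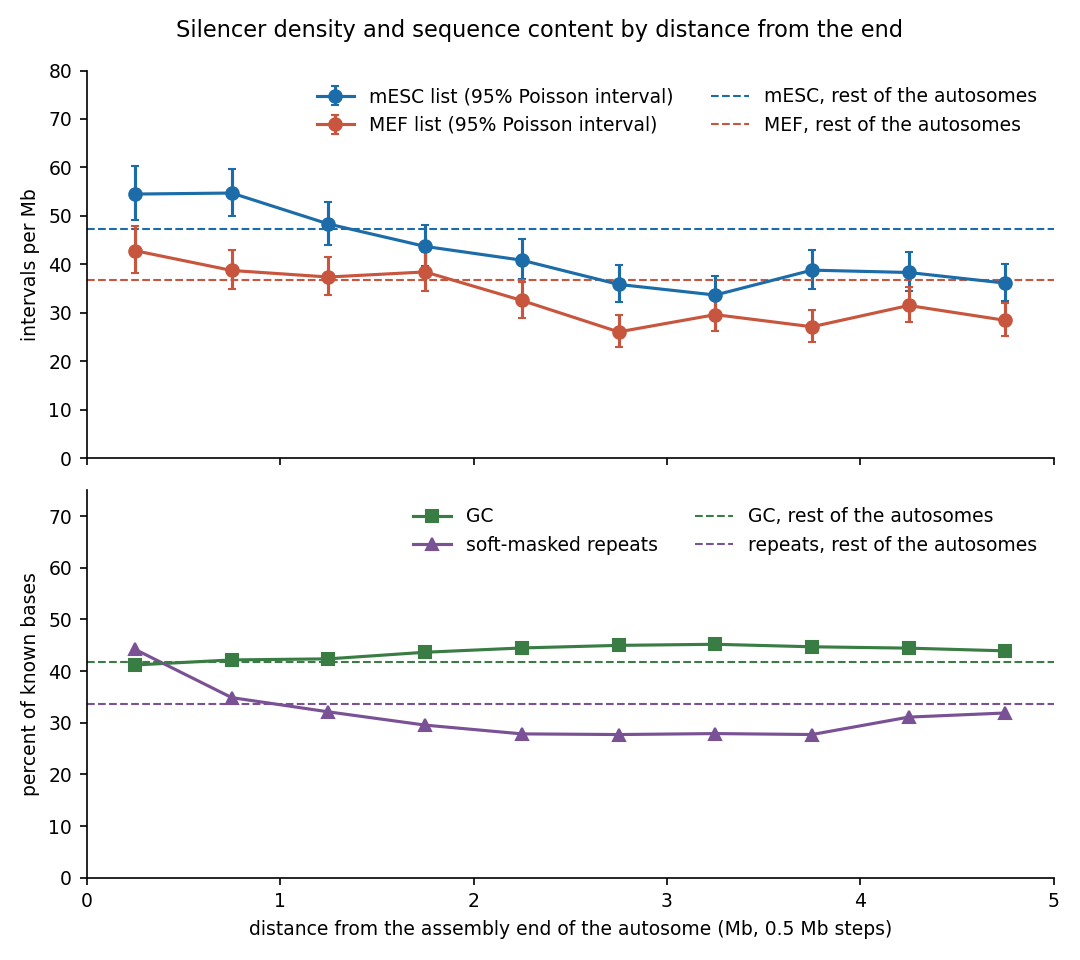
Upper panel, silencer intervals per Mb of known sequence against distance from the assembly end in steps of 0.5 Mb, pooled over 19 autosomes, with 95% exact Poisson intervals; dashed lines give the rest of the autosomes. Lower panel, GC and soft-masked repeat content of the same sequence: density and repeats fall and GC rises over the first 3 Mb inward from the end.

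Split at 1 Mb, a boundary chosen after this profile was seen, the last 1 Mb held 898 mESC intervals, or 53.9 per Mb (50.5 to 57.6), against 39.4 per Mb between 1 and 5 Mb, a ratio of 1.37 (1.28 to 1.46). The MEF list held 667 intervals there, or 40.1 per Mb (37.1 to 43.2), against 31.4 per Mb, a ratio of 1.28 (1.18 to 1.38). The last 1 Mb was denser than the next 4 Mb on 15 of 19 autosomes in each list. Chromosome 6 stood farthest out, with 111.8 intervals per Mb in mESCs and 76.5 in MEFs in its last 1 Mb. Without it the ratio was 1.29 in mESCs and 1.22 in MEFs. Chromosome 13 ran the other way, with 16.2 per Mb in the last 1 Mb against 44.8 per Mb between 1 and 5 Mb in mESCs, and 11.2 against 35.0 per Mb in MEFs.

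**Figure D3:**
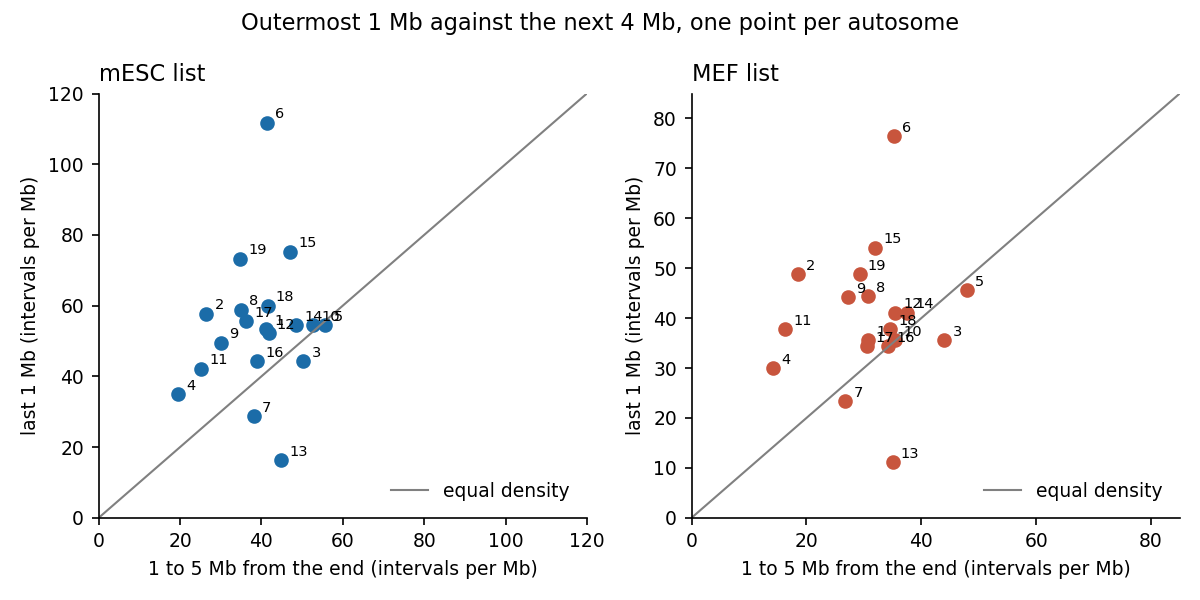
Silencer intervals per Mb in the last 1 Mb of each autosome (vertical axis) against the density between 1 and 5 Mb from the end (horizontal axis), 1 numbered point per autosome, for the mESC list on the left and the MEF list on the right. Points above the grey line have a denser outermost Mb: 15 of 19 in each list, with chromosome 6 highest and chromosome 13 lowest.

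Over all 2404 windows of 1 Mb, the same binomial test placed 3 of the 19 outermost mESC windows above their autosome, beside 7.95% of all windows, and 1 below, beside 7.90%. The 3 were on chromosomes 6, 15 and 19, with adjusted p-values of 2.70e-10, 0.00206 and 0.0269. In the MEF list 2 of the 19 were above, on chromosomes 6 and 15 (adjusted p 2.58e-05 and 0.0385), beside 4.83% of all windows, and 1 was below, beside 5.70%. The window below was chromosome 13 in both lists. The count in an outermost window over the count expected from its autosome had a median of 1.17 in mESCs and 0.996 in MEFs. Between 2 and 3 Mb from the end the balance turned, with 0 mESC windows above and 6 below, and 1 MEF window above and 6 below. With deviations scaled in the same way for the spread between 1 Mb windows, 0 of the 2404 windows passed in either list. An unadjusted binomial p below 0.05 was seen in 650 windows in mESCs and 579 in MEFs.

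The last 1 Mb and the sequence further in also differed in make-up. Soft-masked repeats made up 38.9% of the last 1 Mb, 29.8% between 1 and 2.5 Mb and 29.3% between 2.5 and 5 Mb. GC content was 41.8%, 43.5% and 44.7% over the same steps inward. Protein-coding transcription start sites (TSSs) numbered 14.7, 12.9 and 10.8 per Mb, pooled over the 19 autosomes. Between autosomes, genes and silencers did not rise together. Across the 19 ends of 5 Mb, silencer density and coding TSSs per Mb had Spearman's rho of -0.210 in mESCs and -0.363 in MEFs. Among intervals at least 50% soft-masked, the last 1 Mb was denser than the next 4 Mb by a ratio of 1.52 (1.38 to 1.68) in mESCs and 1.54 (1.37 to 1.72) in MEFs. Among intervals under 50% soft-masked the ratio was 1.27 (1.16 to 1.38) in mESCs and 1.13 (1.01 to 1.25) in MEFs. Set against sequence of the same GC and repeat class in the rest of the autosomes, in bins of 100 kb, the last 1 Mb held 1.18 times the mESC intervals (1.11 to 1.26) and 1.14 times the MEF intervals (1.06 to 1.23). By the same measure the stretch between 2.5 and 5 Mb held 0.873 times the mESC intervals (0.832 to 0.915) and 0.885 times the MEF intervals (0.838 to 0.933).

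Overlap between the lists and fold were set out by the same steps. In the MEF list 52.3% (48.5 to 56.2) of intervals in the last 1 Mb overlapped an mESC interval, with 45.7% (42.6 to 48.8) between 1 and 2.5 Mb and 44.8% (42.1 to 47.5) between 2.5 and 5 Mb. In the mESC list these shares were 38.4% (35.2 to 41.7), 37.0% and 35.4% (33.1 to 37.7), with overlapping errors. The median fold was 2.46, 2.41 and 2.36 over the same steps in the mESC list and 2.41, 2.33 and 2.33 in the MEF list. For shared mESC intervals the density ratio of the last 1 Mb to the next 4 Mb was 1.46 (1.31 to 1.62), and for mESC intervals without a MEF overlap it was 1.32 (1.21 to 1.43). It was 1.48 (1.33 to 1.64) for shared MEF intervals and 1.11 (0.993 to 1.24) for MEF intervals without an mESC overlap.

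Over the whole 5 Mb, terminal sequence was richer in GC and genes than the rest. Its GC content was 43.8%, against 41.9% in the rest of the autosomes, it was 31.2% soft-masked, against 33.6%, and it had 12.1 coding TSSs per Mb, against 8.55. The ends of chromosomes 4 and 11, with the lowest silencer densities, had the highest GC content of the 19 at 49.9% and 49.7%. Across the 19 ends, silencer density and GC content ran in opposite directions, with Spearman's rho of -0.485 in mESCs and -0.498 in MEFs, against -0.0748 and -0.0784 across the other 460 windows. Both measures come from the same sequence, so these are descriptions. Outside the ends, density in 100 kb bins rose and then fell with GC, a shape that a rank correlation can miss. Under 38% GC it was 41.7 mESC and 31.4 MEF intervals per Mb. At 40 to 42% GC it was 54.2 and 43.2, and at 50% GC or more it was 24.8 and 17.3. The weaker correlation elsewhere therefore does not show that the link with GC is particular to the ends. When the rest of the autosomes was weighted to the GC classes of the terminal 100 kb bins, a comparison added after the data were seen, the terminal density ratio became 0.967 (0.937 to 0.998) in mESCs and 0.980 (0.945 to 1.02) in MEFs. How far base composition sets the terminal density was not tested beyond this weighting.

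**Figure D4:**
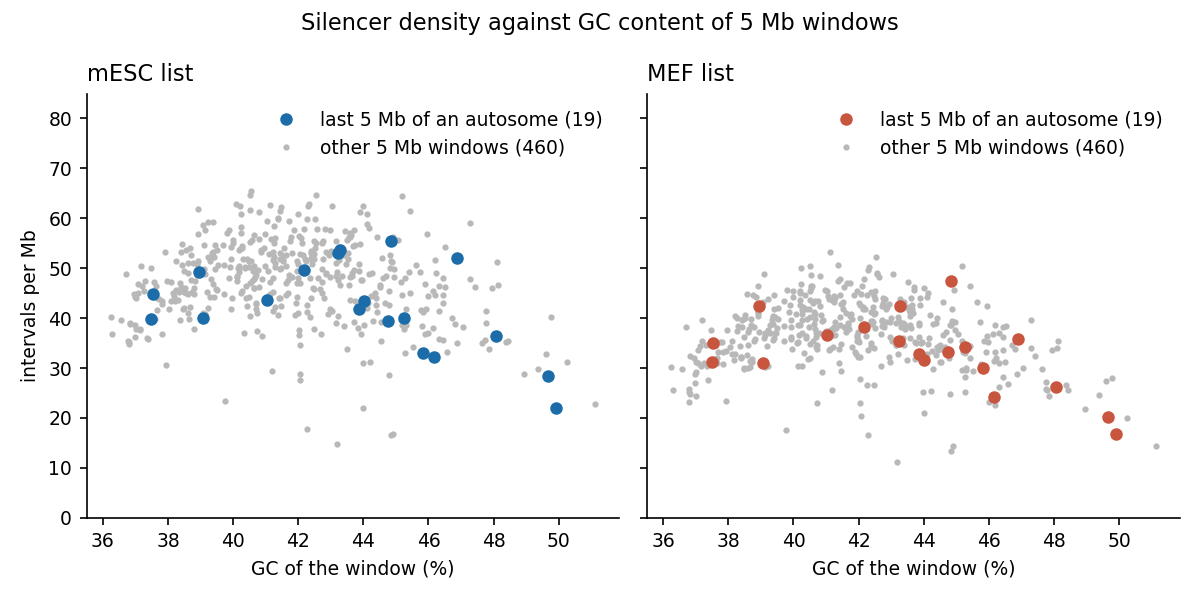
Silencer intervals per Mb against GC content for the last 5 Mb of the 19 autosomes (coloured points) and for the other 460 windows of 5 Mb (grey points), for the mESC list on the left and the MEF list on the right. The terminal windows reach 49.9% GC, and the 2 with the most GC, chromosomes 4 and 11, have the fewest silencers.

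By class of sequence, the lowest ratio of terminal to other density was in the bins richest in GC. In 100 kb bins of at least 50% GC the ends had 21.1 mESC intervals per Mb (18.0 to 24.5), against 24.8 (23.7 to 26.0) in such bins elsewhere, and 12.9 MEF intervals per Mb (10.6 to 15.7), against 17.3 (16.4 to 18.3). In bins of 44 to 46% GC the order was the other way, with 49.5 mESC intervals per Mb (45.8 to 53.4), against 46.98 (46.2 to 47.8), and 40.4 MEF intervals (37.0 to 43.9), against 36.5 (35.8 to 37.2). The ratio was also above 1 in bins under 38% GC, at 1.04 in mESCs and 1.06 in MEFs. In bins of 40 to 42% GC the ends had 53.2 mESC intervals per Mb (48.9 to 57.8), against 54.2 (53.5 to 54.9), and 41.9 MEF intervals (38.1 to 46.0), against 43.2 (42.5 to 43.8). Terminal bins with no interval made up 5.30% of the bins in the mESC list, against 3.80% elsewhere, and 9.31% in the MEF list, against 6.27%.

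The intervals themselves were close to those elsewhere in length and fold. The median length was 200 bp at the ends and in the rest in both lists. The median authors' fold was 2.40, against 2.41 in the rest, in mESCs and 2.35, against 2.36, in MEFs. Folds above 4 made up 7.78% (6.95 to 8.66) of terminal mESC intervals, against 7.78% in the rest, and 6.05% (5.23 to 6.96) of terminal MEF intervals, against 5.71%. Mean GC was 40.7% at the ends, against 40.2% in the rest, in mESCs and 40.5%, against 40.1%, in MEFs, so the intervals were poorer in GC than the 43.8% of the sequence around them. Soft-masked bases made up 43.0% of a terminal mESC interval on average, against 40.7% in the rest, and 41.7% of a terminal MEF interval, against 38.3%. Of terminal mESC intervals 43.6% had another mESC interval at most 5 kb away, against 45.0% in the rest, and the same held for MEFs in 36.6%, against 38.7%. The commonest listed fold, 2.71 in mESCs and 2.72 in MEFs, stood on 129 terminal mESC intervals (3.32%, against 3.54% in the rest) and on 90 terminal MEF intervals (2.96%, against 3.41%). The longest members, of 1600 bp in an intron of Cars in the mESC list (chr7:143580802-143582401) and of 1040 bp in an intron of Rdh16f2 in the MEF list (chr10:127870062-127871101), had folds of 2.13 and 2.00.

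The 3 highest folds of each list lay in introns or between genes, on intervals of 50 to 450 bp. The 3 of at most 100 bp, the shortest of these, are shown (plus strand, GRCm38, RefSeq, with no telomere unit to capitalise). Whether the bases of a short interval alone carry its fold was not tested.
Highest mESC fold, chr10:127073140-127073239, A730063M14Rik intron: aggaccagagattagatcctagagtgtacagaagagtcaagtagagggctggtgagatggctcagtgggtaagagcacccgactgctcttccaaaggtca
The third mESC fold, chr9:123395952-123396001, Lars2 intron: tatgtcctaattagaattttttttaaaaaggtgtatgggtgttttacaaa
The MEF interval with the next fold after the highest, chr15:99179932-99179981, Spats2 intron: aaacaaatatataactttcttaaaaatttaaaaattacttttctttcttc
The chromosome 10 interval had a fold of 43.4, was 61.0% soft-masked and lay 2.09 kb from Agap2, which encodes a GTPase-activating protein. The chromosome 9 interval, in the gene of mitochondrial leucyl-tRNA synthetase, had a fold of 19.0 and a GC content of 24.0%. The chromosome 15 interval had a fold of 19.1 and a GC content of 14.0%. None of these 3 overlapped an interval of the other list. The mESC fold next to the highest, 42.0, stood on an intergenic interval of 299 bp (chr3:156162129-156162427), which was likewise absent from the MEF list. The highest MEF fold, 19.7, stood on an intergenic interval (chr2:181916952-181917401) only 95.8 kb from the last known base, and the same interval had a fold of 6.55 in the mESC list. The third MEF fold, 14.3, was in an intron of Gnb1, a G protein beta subunit gene (chr4:155517226-155517525), where the overlapping mESC interval had 2.78.

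The cell types had similar shares at the ends. Of the 6926 intervals 56.1% (54.9 to 57.3, exact binomial) were from the mESC list, with 56.2% over all 479 windows, and the share ran between 52.5% on chromosome 9 and 59.9% on chromosome 10. An exact binomial test called 0 of the 19 ends for the mESC share, beside 0% of the 479 windows. An unadjusted p below 0.05 was seen in 0 of the 19 ends, beside 10 of the 479 windows. An mESC interval overlapped a MEF interval in 36.6% (35.1 to 38.1) of cases, against 36.6% in the rest. A MEF interval overlapped an mESC interval in 46.7% (45.0 to 48.5) of cases, against 47.3%. The lowest overlap was on chromosome 11, at 25.9% in the mESC list and 36.4% in the MEF list, and the highest on chromosome 18, at 44.5% and 56.4%. By Fisher's exact test 0 of the 19 ends stood apart in the shared share, beside 0% of the 479 windows. In each list 3 ends had an unadjusted p below 0.05, beside 34 of the 479 windows in mESCs and 50 in MEFs. The 1443 overlapping pairs included 138 with the same start and end, and across pairs Spearman's rho of both folds was 0.518, a description of intervals that share sequence.

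Terminal silencers were fewer in coding exons and promoters than the bases of those classes would hold, as they were elsewhere. Coding exons held 0.541% (0.335 to 0.825) of terminal mESC intervals, against 0.528% in the rest, and 0.493% (0.276 to 0.812) of terminal MEF intervals, against 0.530%. Coding exons fill 1.62% of terminal bases, so the share of intervals over the share of bases was 0.333 at the ends, against 0.452 in the rest, in mESCs and 0.304, against 0.453, in MEFs. Promoters, taken as 1 kb either side of a TSS, held 4.09% (3.49 to 4.77) of terminal mESC intervals, against 3.49% in the rest, and 3.88% (3.22 to 4.63) of terminal MEF intervals, against 3.40%. Relative to bases this was 0.734 at the ends, against 0.789, in mESCs and 0.695, against 0.767, in MEFs. Introns held 45.5% of terminal mESC intervals, against 44.2%, and 44.9% of terminal MEF intervals, against 43.9%.

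**Figure D5:**
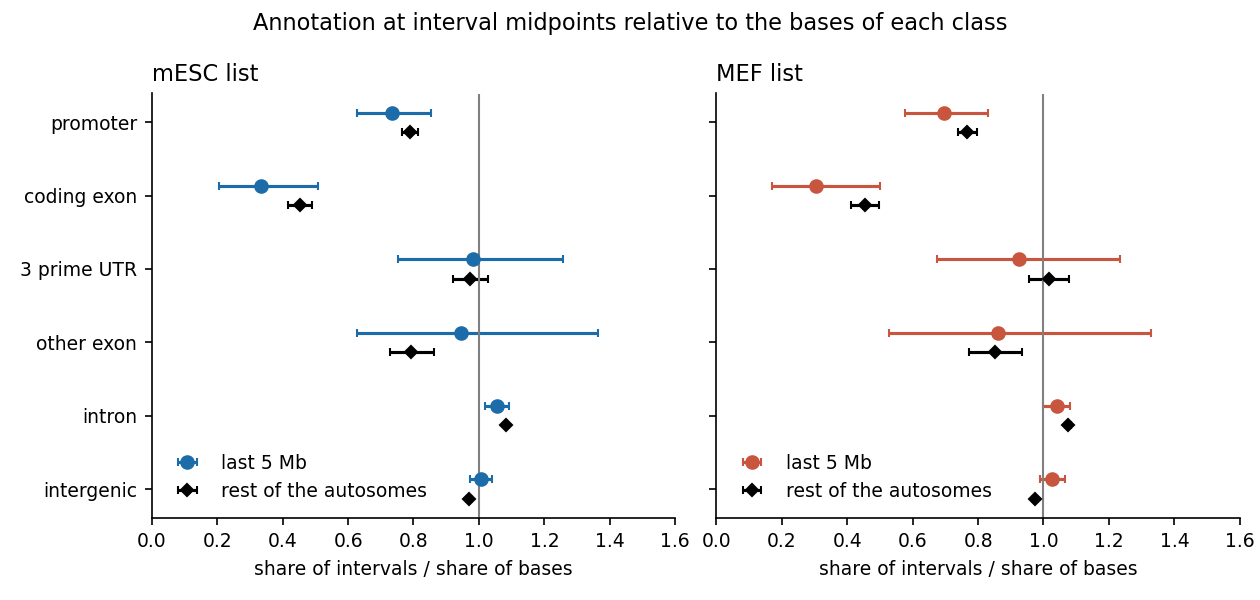
Share of silencer intervals whose midpoint lies in an annotation class divided by the share of known bases in that class, with 95% exact binomial intervals, for the last 5 Mb (circles) and the rest of the autosomes (diamonds), mESC list on the left and MEF list on the right. A value of 1 means no more or fewer than the bases would hold; coding exons lie lowest, at 0.333 and 0.304 in the last 5 Mb. The class of 5 prime UTRs, with 2 terminal intervals in each list, is not drawn.

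Motifs were searched on both strands in 300 bp centred on each interval. The telomere unit TTAGGG occurred in 11.9% (10.9 to 13.0) of terminal mESC windows, against 10.8% (10.6 to 11.0) in the rest, and in 10.7% (9.61 to 11.8) of terminal MEF windows, against 10.7%. A tandem pair of units occurred in whole intervals of 2 terminal mESC and 2 terminal MEF members, at 2 places, Hhat and chr12:119292502-119293101, a region 21.5 kb from Macc1. These were 0.0515% (0.00624 to 0.186) of terminal mESC intervals, against 18 intervals or 0.0165% (0.00979 to 0.0261) in the rest. In MEFs they were 0.0657% (0.00796 to 0.237), against 7 intervals or 0.00826% (0.00332 to 0.0170). Within 300 bp centred windows 1 terminal window of each list held a pair, against 28 windows in the rest in mESCs and 7 in MEFs. AP-1 (TGACTCA, the site of Fos and Jun dimers) was in 4.45% (3.83 to 5.15) of terminal mESC windows, against 4.51%, and in 4.54% (3.82 to 5.34) of terminal MEF windows, against 5.21% (5.06 to 5.36). The TEAD motif GGAATG was in 16.2% (15.1 to 17.4), against 16.4%, in mESCs and in 15.4% (14.1 to 16.7), against 16.2%, in MEFs. The KLF and SP box GGGCGG, the E-box CACGTG and the ZFP57 site TGCCGC each stood in 1.25 to 3.04% of terminal windows, and for each of them the interval of the terminal share held the share of the rest in both lists.

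Genes were read through territories, a gene body with 10 kb on either side, and the gene lists below were chosen with earlier results of these data known. Of 1118 protein-coding genes at the ends, 213 (19.1%) had no interval in either list, against 16.1% of the 19689 genes elsewhere. Pooled over their territories, terminal genes had 44.02 mESC intervals per Mb, against 49.99 for genes elsewhere, and 33.4 MEF intervals per Mb, against 38.2. Of 134 terminal genes with at least 10 intervals, 0 had an mESC share apart from the autosomal share by an exact binomial test. Over all 3502 such genes the test called 0%. An unadjusted p below 0.05 was seen in 2 of the 134, beside 28 of the 3502.

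Long neuronal genes were among the territories with the most intervals. Fgf14, an intracellular relative of the fibroblast growth factors that binds sodium channels, had 39 mESC and 32 MEF intervals over 719.2 kb on chromosome 14. Negr1, a neuronal surface adhesion gene, had 32 and 31 over 774.7 kb. Fry had 28 mESC and 29 MEF intervals over 399.1 kb. Ptprn2, a dense-core vesicle protein gene, had 27 and 30 over 811.1 kb, and Dscam, a cell adhesion gene of neurons, had 24 and 25. The 13 genes of the adhesion and neuronal list together held 226 mESC and 202 MEF intervals. Their median was 81.7 intervals per Mb of both lists, against 65.3 over all terminal genes. The 65.3, also used below, counts each territory alike, and 19.1% of territories held no interval. By list the medians of the 13 were 41.3 mESC and 38.1 MEF intervals per Mb. Pooled over all terminal territories, the densities were 44.02 and 33.4, so these genes were not clearly denser.

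Bicd1, a dynein adaptor gene on chromosome 6, packed 29 mESC and 23 MEF intervals into 174.4 kb, and 15 and 16 of these were shared. It lies 173.2 kb from the assembly end, within the dense last 1 Mb of that chromosome. The 2 densest 100 kb bins of all ends are next to each other there. One (chr6:149436547-149536546) had 18 mESC and 12 MEF intervals, and the other (chr6:149336547-149436546) had 12 and 16. Among terminal genes with at least 10 intervals, the highest densities per gene were in short territories. There were 6 mESC and 6 MEF intervals in 24.5 kb around Csf2ra, the alpha subunit of the GM-CSF receptor. Zfp941 had 11 and 5 in 34.7 kb, and Hnrnpa1, a splicing regulator, had 8 and 3 in 26.3 kb. Nfe2, an erythroid transcription factor gene, had 8 and 4 in 30.2 kb that overlap those of Hnrnpa1.

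Chemokine receptor genes, which guide leukocyte migration, lie together near the end of chromosome 9. All 8 had at least 1 interval, with 28 mESC and 19 MEF intervals in all and a median of 134.6 per Mb, against 65.3 over all terminal genes. Ccr2, the monocyte receptor of Ccl2, had 7 mESC and 5 MEF intervals, of which 5 in each list were shared. Ccr9 had 5 and 6, Cxcr6 had 4 and 1, and neighbouring territories overlap, so an interval can count for both. The end of chromosome 9 as a whole was sparse, at 33.1 mESC and 29.9 MEF intervals per Mb. Its last 1 Mb, where these genes lie, was not. That stretch held 49.5 mESC and 44.2 MEF intervals per Mb, against 49.4 and 39.1 in the chromosome outside its last 5 Mb.

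Growth factor genes stood in both dense and empty places. Fgf10, a ligand needed for limb and lung budding, had 9 mESC and 10 MEF intervals over 142.3 kb, of which 7 in each list were shared. Kl, the co-receptor of hormonal fibroblast growth factors, had 6 and 3 over 61.2 kb. Gfra1, a receptor of glial cell line-derived neurotrophic factor, had 11 mESC and 3 MEF intervals over 240.3 kb, a difference that did not pass the test over all genes. Fgf15, the intestinal hormone that restrains bile acid synthesis, had 0 in both lists. Of the 12 growth factor genes at the ends, 1 had none, and their median was 102.2 per Mb.

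The imprinted domain of distal chromosome 7, where one parental copy of many genes is silent, was uneven. Of its 16 genes 5 had no interval in either list: H19, a non-coding RNA gene, Ascl2, Tspan32, the growth inhibitor Cdkn1c, and Osbpl5. Kcnq1, a potassium channel gene, had 13 mESC and 6 MEF intervals over 340.7 kb, and the antisense RNA gene Kcnq1ot1 inside it had 8 and 5 over 113.1 kb. The lists carry no strand, so intervals in overlapping genes count for both. Igf2, the fetal growth factor, had 1 and 1, shared. The domain's median was 46.0 intervals per Mb, against 65.3 over all terminal genes.

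Keratin genes, epithelial filament genes clustered on chromosome 15, were the emptiest list. Of 26 genes 16 had no interval in either list, and the 26 territories summed to 7 mESC and 6 MEF intervals, none of them shared. The HoxC genes, patterning factors about 1 Mb from the same end, summed to 7 mESC and 2 MEF intervals over 9 genes, and 4 of them (Hoxc6, Hoxc8, Hoxc9 and Hoxc10) had none. Hoxc12 had 3 and 1. Neighbouring territories overlap in the keratin and HoxC lists, so an interval can count for more than 1 gene in these sums. On distal chromosome 11, the Polycomb gene Cbx2 had 1 in each list and Cbx8 had 0. The difference of any list from other genes was not tested.

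The ends of chromosomes 2 and 4 were sparse over the whole 5 Mb. Lineage factor genes there ran between 0 intervals per Mb for Gata5 and 91.7 per Mb for Sox18. Sox18, a vascular factor gene, had 1 mESC and 1 MEF interval in 21.8 kb, and both were shared. Hes5, a Notch target, had 1 and 0 in 21.4 kb. Prdm16, a regulator of brown fat and neural stem cells, had 3 mESC and 3 MEF intervals over 340.7 kb. Ski had 2 and 0 over 88.5 kb, Myt1 had 1 and 0 over 84.5 kb, and the cadherin gene Cdh4 had 6 and 4 over 476.9 kb. Rtel1, a helicase that maintains telomeres, had 1 and 0 over 56.9 kb. Sox18, Myt1 and Rtel1 lie in the last 1 Mb of chromosome 2, which was not sparse. It held 57.8 mESC and 48.9 MEF intervals per Mb, against 47.1 and 36.9 in the chromosome outside its last 5 Mb. On the dense end of chromosome 5, the replication clamp loader gene Rfc3 had 2 and 4 over 28.5 kb and the cohesin regulator gene Pds5b had 11 and 9 over 157.0 kb. Brca2, a homologous recombination gene beside them, had 9 and 7 over 67.7 kb. The 4 telomere and repair genes had a median of 169.0 per Mb and the 13 lineage factor genes one of 60.6, of which 1, Gata5, had no interval. The longest territories with 0 intervals in both lists were Tmem267 (143.0 kb), Traf5 (115.4 kb), Nphp4 (106.5 kb), Scn11a (91.7 kb) and Osbpl5 (88.2 kb). Among these, Traf5 encodes a TNF receptor adaptor, Nphp4 a ciliary protein, Scn11a a sodium channel of sensory neurons and Osbpl5 a lipid transfer protein. The longest stretch between neighbouring midpoints was 375.3 kb in the mESC list, on chromosome 13 (chr13:119907125-120282376), and 524.2 kb in the MEF list, on chromosome 4 (chr4:152931651-153455901).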

How the data were processed

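The labels describe 140 libraries of Ss-STARR-seq in mESCs and MEFs. The authors deposited 1 interval list per cell type, and each interval carries a fold, a linear ratio per the file headers. For the peak caller, the scaling, the libraries that were divided and any pooling, nothing is given in the sources used here. The reads were processed with Bowtie2 and SAMtools, per the submitters' processing notes, which name the build hg38. The series design names mm10, 0 intervals of either list end beyond an mm10 chromosome, and mm10 was used. Many starts lie 1 bp past a multiple of 50, so printed starts may be off by 1 bp.

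Sequence and soft-masking came from GRCm38.p6 and genes from GENCODE M21 basic. Autosomes were tiled into 5 Mb windows from the distal end, and windows with at least 50% known bases were kept. Density was tested with a two-sided exact binomial test against the window's autosome, the mESC share with an exact binomial test and the shared share with Fisher's exact test, each Benjamini-Hochberg adjusted over all windows at 0.05. Intervals of densities are 95% exact Poisson and those of shares 95% Clopper-Pearson. Intervals of a density ratio take only the count in its numerator as uncertain. Shared intervals have an overlap of 1 bp or more with the other list. The tests were checked on simulated counts drawn independently, which does not check them for clustered intervals. Work was done in Python 3.11.15 with numpy 2.4.6, pandas 2.3.3 and scipy 1.17.1.

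The members and gene lists were chosen with earlier results of these data known. Named genes were the 5 terminal territories with the most mESC, MEF and shared intervals, the 5 densest with at least 10 intervals, the 5 longest with none, any that passed the share test, and members of the fixed lists. The listed intervals were the 3 highest folds, the longest and the outermost. The tandem TTAGGG intervals, the densest bins and the longest gaps were picked after the values were seen. Alternatives were other widths, a fold filter, merging, list-only intervals, repeats, overlap rules, promoter width and the sequence searched. Single autosomes left out and weighting by GC or repeats were added after the data were seen. Values per library were not analysed here, and some genes that the rule names are not reported here.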

Additional observations from a re-analysis of the deposited data

How the results depend on the processing

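With no read depth given and 1 list per cell type, all errors are counting errors. No paired analysis was possible because each cell type has 1 list with no replicate columns. The terminal density ratio turned with the width: in the last 2.5 Mb it was 1.02 in mESCs and 1.03 in MEFs, and in the last 10 Mb it was 0.861 and 0.868. Among intervals under 50% soft-masked it was 0.838 in mESCs and 0.830 in MEFs, and with the rest weighted to terminal GC it was 0.967 and 0.980. With single autosomes left out it ran between 0.870 (without chromosome 5) and 0.909 (without chromosome 4) in mESCs and between 0.870 (without chromosome 5) and 0.917 (without chromosome 11) in MEFs. With deviations scaled by the dispersion, 0 ends were called above and 0 below in each list. With folds at or above the list median, 0 ends were called above in each list. Under that filter 6 mESC and 4 MEF ends were called below, against 7 and 6 in the main setting.

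The ratio of the last 1 Mb to the next 4 Mb stayed above 1 in each setting run. In mESCs it was 1.50 at folds at or above the median, 1.27 under and 1.52 over 50% soft-masked, 1.24 by GC class and 1.28 by GC and repeat class. In MEFs it was 1.49 at folds at or above the median, 1.13 under and 1.54 over 50% soft-masked, 1.48 for shared and 1.11 for list-only intervals, and 1.15 by GC class. With single autosomes left out it ran between 1.29 and 1.43 in mESCs and between 1.22 and 1.33 in MEFs, the lowest without chromosome 6 and the highest without chromosome 13.

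The overlapping share of terminal mESC intervals was 28.9% with 50% of both intervals, against 29.4% in the rest. It was 42.3%, against 42.0%, with midpoints within 1 kb and 31.8%, against 31.0%, with both lists at or above their median fold. In MEFs these were 36.9%, 52.9% and 40.8%, against 37.8%, 53.1% and 39.9%. The mESC share was 60.3% over list-only intervals, against 60.7% over all windows. Promoters of 5 kb either side held 23.4% of mESC and 20.9% of MEF intervals, against 18.4% of each list in the rest. Introns then held 36.6% and 36.8%, against 36.6% and 36.4%. The ends had more coding TSSs per Mb than the rest, 12.1 against 8.55. In whole intervals, which are mostly shorter than 300 bp, TTAGGG was in 9.19% (8.30 to 10.1) of mESC members, against 8.13% in the rest. In MEFs it was in 8.02%, against 7.72%. TEAD was in 12.1% of mESC and 11.3% of MEF members, against 12.1% and 11.8%. AP-1 was in 3.14% and 3.22%, against 3.43% and 3.86%. Shares of the motifs and of annotation classes other than coding exons and promoters were also compared with the main setting. Of these, 21 moved beyond its counting error and 13 did not. A wider promoter or another search length changes what is counted, so these moves do not compare the ends with the rest. Other causes were not tested.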
